A study of Mus musculus with 24 samples.

Results

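The mitochondrial ribosomal protein genes were described across D4M tumours of mice given brequinar, an antibody against PD-1, both, or neither. Members were all genes of the count table whose mouse symbol is Mrpl or Mrps followed by a number and at most 1 letter, which gave 78 of 55414 genes, 49 named for the large ribosomal subunit and 29 for the small one. D4M is a mouse melanoma line, and the labels give the genotype as C57BL/6 WT. The 24 tumours fell into 4 groups of 6, each injected intraperitoneally: brequinar with anti-PD1 antibody (BRQ+PD-1), brequinar with an IgG2a control antibody (BRQ+IgG2a), anti-PD1 antibody alone (PD-1), and the IgG2a antibody alone (IgG2a). Brequinar inhibits dihydroorotate dehydrogenase, a mitochondrial enzyme of pyrimidine synthesis, and PD-1 is an inhibitory receptor of T cells. All groups share this 1 line; the labels used here state neither the age of the mice nor the doses. Of 9 melanocyte lineage markers, Dct and Tyr had 0 counts in every tumour, and Mitf had 240 to 1242 counts per tumour. The others were low: Tyrp1, Mia and Mlana had at most 2, 2 and 5 counts. Sox10, Pmel and S100b had at most 30, 35 and 64 counts, and 3 of the 9 had enough counts to be tested.

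Mitochondria keep ribosomes of their own, which translate the few proteins encoded in mitochondrial DNA, all of them subunits of the respiratory chain and ATP synthase. The ribosomal RNAs come from mitochondrial DNA, whereas every ribosomal protein is encoded in the nucleus, made in the cytosol and imported. Some of these proteins descend from bacterial ribosomal proteins and others exist only in mitochondria. A few names mislead: Mrps18a and Mrps30 sit in the large subunit of the mammalian mitoribosome, and Mrps36 is known as a subunit of the oxoglutarate dehydrogenase complex.

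Libraries held 19106205 to 34282319 counts, and the members took 0.188 to 0.293% of them, or 46460 to 88980 counts per tumour. Of the 78 members, 77 were tested, each with at least 197 counts in every tumour. Mrpl53 had 0 counts in all 24 libraries, which allows up to 3 counts in each; in the GENCODE M21 annotation 88.0% of its exon length is overlapped on the same strand by Gm42688, which had 7 to 44 counts. Skeletal muscle transcripts set 4 tumours apart (IgG2a replicates 2 and 3, PD-1 replicate 6 and BRQ+IgG2a replicate 4), with a summed level of 13980 to 51130 CPM (counts scaled to library size) over the muscle list, against at most 1769 CPM in the other 20. By group that sum spanned 38.0 to 931.6 CPM in BRQ+PD-1, 32.9 to 19150 in BRQ+IgG2a, 43.25 to 13980 in PD-1 and 37.2 to 51130 in IgG2a; 0 of its 23 tested genes were called with brequinar averaged over antibodies, all 23 having negative values. T cell markers also moved: 15 of 20 rose in BRQ+IgG2a against IgG2a, where 2.96% of all genes rose. In BRQ+PD-1 against IgG2a 3 of 20 rose, against 2.48% of all genes. Where 6.91% of all genes rose with brequinar averaged, 15 of these 20 markers did, and 0 were called in BRQ+PD-1 against PD-1. Their sum spanned 48.0 to 190.8 CPM in BRQ+PD-1, 53.7 to 337.5 in BRQ+IgG2a, 58.1 to 213.9 in PD-1 and 34.6 to 121.3 in IgG2a, and no gene of either list was at 0 throughout. The part of T cell RNA in the results below was not tested.

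The mean level of the members was lowest in BRQ+PD-1 tumours and highest in IgG2a tumours, and 19 of the 77 genes fell with brequinar averaged over antibodies. Per tumour, the mean over the 77 genes, in log2 CPM scaled by TMM factors, was 4.69 ± 0.154 in BRQ+PD-1, 4.812 ± 0.0575 in BRQ+IgG2a, 4.894 ± 0.0945 in PD-1 and 4.927 ± 0.145 in IgG2a (SD, n = 6 each). The lowest, median and highest tumours were 4.438, 4.734 and 4.854 in BRQ+PD-1, and 4.754, 4.787 and 4.896 in BRQ+IgG2a. They were 4.826, 4.861 and 5.079 in PD-1, and 4.766, 4.917 and 5.098 in IgG2a. The groups overlapped: the 4 lowest of all 24 tumours were BRQ+PD-1 replicates 2, 1, 3 and 6, BRQ+PD-1 replicates 4 and 5 lay among the other groups, and the 3 highest tumours were muscle-rich ones (IgG2a replicates 2 and 3, PD-1 replicate 6). Without the 4 muscle-rich tumours the means were 4.69 in BRQ+PD-1, 4.80 in BRQ+IgG2a, 4.86 in PD-1 and 4.85 in IgG2a. In bulk tumour RNA, fewer cells of a type and less RNA per cell cannot be told apart.

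**Figure D1:**
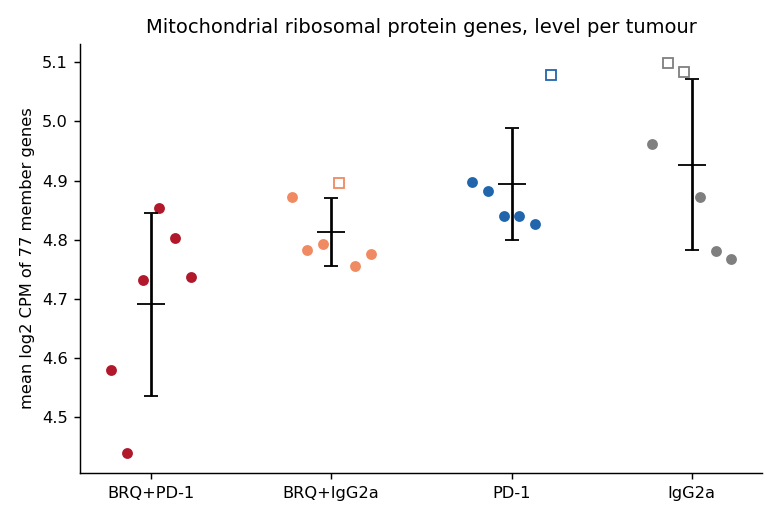
Level of the mitochondrial ribosomal protein genes in each tumour, as the mean log2 CPM of the 77 tested members (vertical axis), by group (horizontal axis); open squares are the 4 muscle-rich tumours, and the bars give mean ± SD. The BRQ+PD-1 tumours average 4.69 and reach down to 4.438, and the 3 highest points are muscle-rich tumours without brequinar.

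The 4 treatments make a grid of brequinar and antibody, so the brequinar effect was also taken as the average of the brequinar groups minus the average of the groups without it. In that comparison 19 of 77 members fell and none rose, where 5.57% of all 16029 genes tested fell and 6.91% rose (a gene is said to fall or rise at an adjusted p under 0.05). The 19 are 24.7% of the tested members, 13 of them of the large subunit and 6 of the small. The median log2 fold change of the members was -0.17, a level 10.9% lower, against 0.01 over all genes tested, and 71 of 77 members had a negative value. With each tumour left out in turn 12 to 27 members passed, the fewest without PD-1 replicate 6, and Mrpl41, Mrps24, Mrpl2 and Mrpl37 passed in only 4, 7, 10 and 12 of 24 fits. Medians were -0.17 for the 48 tested genes named for the large subunit and -0.16 for the 29 named for the small one. The 29 include Mrps18a, Mrps30 and Mrps36. Without the 4 muscle-rich tumours 3 members fell (Mrps35, Mrpl12 and Mrpl49), and the median was -0.12 with 68 of 77 members negative.

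**Figure D2:**
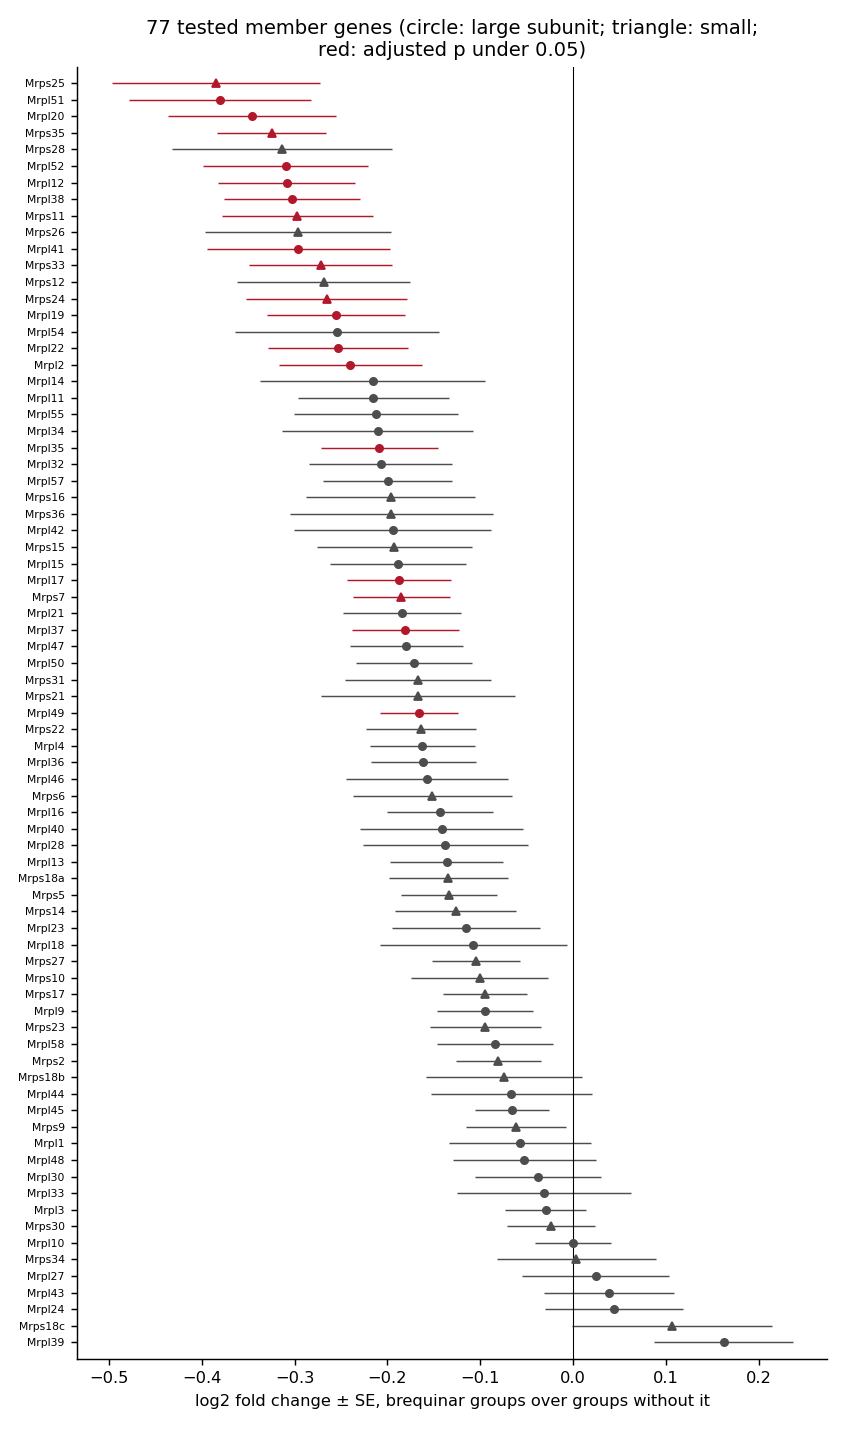
Log2 fold change with its SE (horizontal axis) of each of the 77 tested members (vertical axis), brequinar groups over groups without it, averaged over antibodies. Circles are genes named for the large subunit, triangles genes named for the small one, and red marks the 19 members that passed. Most points lie left of 0, and Mrpl39 lies farthest to the right at 0.16.

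Each pair of groups gave fewer calls. In BRQ+PD-1 against IgG2a 8 members fell (10.4% of members; 1.43% of all genes fell and 2.48% rose), with a median of -0.24. In BRQ+PD-1 against PD-1 7 fell (9.09% of members; 2.66% of all genes fell and 2.38% rose), with a median of -0.19. These comparisons share the BRQ+PD-1 tumours, and Mrps35, Mrpl12 and Mrpl49 passed in both. With each tumour left out in turn, Mrps35 passed in all 24 fits of both; Mrpl12 passed in 22 against IgG2a and 18 against PD-1, and Mrpl49 in 7 and 24. The other 5 calls against IgG2a passed in 6 (Mrpl20) to 20 (Mrps24) of the 24 fits, and the other 4 against PD-1 in 4 (Mrpl38) to 15 (Mrps25), all 4 failing without PD-1 replicate 6. Without IgG2a replicate 1 only Mrps35 passed against IgG2a. Without the 4 muscle-rich tumours 1 member (Mrps35) passed against IgG2a and 2 (Mrps35 and Mrpl49) against PD-1. Without BRQ+PD-1 replicates 1 and 2, left out after the data were seen, edgeR called 0 against IgG2a (34 were lower at an unadjusted p under 0.05) and 2 against PD-1, 1 of them (Mrps35) among the 7. In BRQ+IgG2a against IgG2a edgeR called 0 members (0.493% of all genes fell and 2.96% rose), while 10 were lower at an unadjusted p under 0.05, limma voom called 2 and DESeq2 0. In PD-1 against IgG2a edgeR called 0, with 0 at an unadjusted p under 0.05 and 0 by limma voom and DESeq2, where 0% of all genes fell and 0.0187% rose. BRQ+PD-1 against BRQ+IgG2a also gave 0 by edgeR (0% of all genes fell), with 13 lower at an unadjusted p under 0.05, 1 by limma voom and 0 by DESeq2. The difference between the brequinar effects with and without anti-PD1 was tested as an interaction: edgeR called 0 members (0% of all genes fell), 4 were negative at an unadjusted p under 0.05, limma voom called 1 and DESeq2 0.

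**Figure D3:**
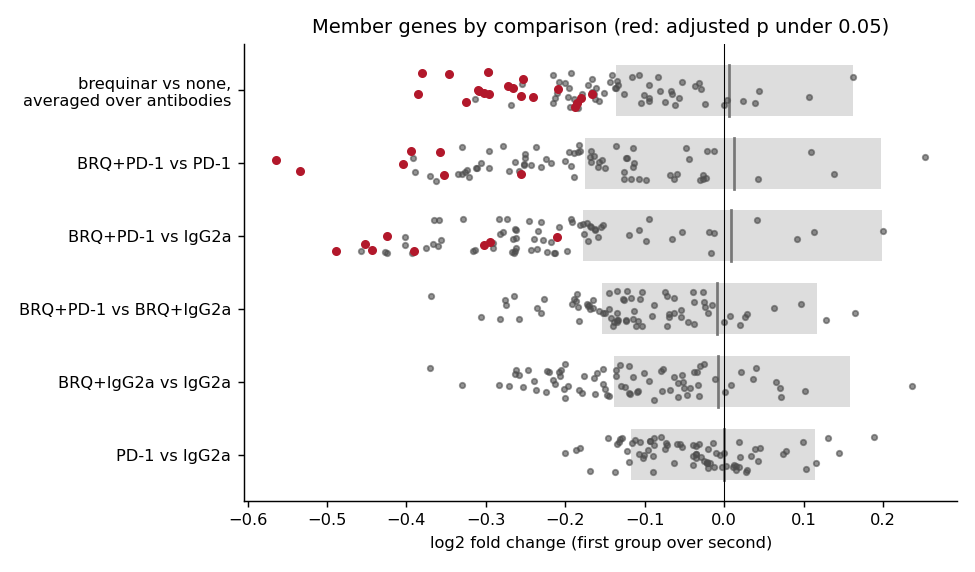
Log2 fold change of the 77 tested members (points) in each comparison, first group over second; red points passed, the grey box spans the middle quartiles of all 16029 genes tested and the grey line is their median. In the comparisons of BRQ+PD-1 with PD-1 and with IgG2a the members' medians are -0.19 and -0.24, and in PD-1 against IgG2a -0.04.

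Mrps35, a small subunit protein found only in mitochondria, changed most clearly. Its lowest, median and highest CPM were 18.2, 22.2 and 25.4 in BRQ+PD-1, 25.3, 26.4 and 28.0 in BRQ+IgG2a, 28.3, 31.0 and 37.7 in PD-1, and 27.1, 28.6 and 30.7 in IgG2a. Every BRQ+PD-1 tumour lay below every PD-1 tumour and every IgG2a tumour. Mrpl4, Mrpl21 and Mrps33 also lay wholly below IgG2a, making 4 of 77 members where 0.848% of all genes did, and Mrpl45 wholly below PD-1, making 2 where 1.5% of all genes did. No member lay wholly lower in PD-1 than in IgG2a, where 0.193% of all genes did. The log2 fold change of Mrps35 was -0.53 ± 0.0832 (SE) in BRQ+PD-1 against PD-1 (adjusted p = 0.00108), -0.39 ± 0.0831 in BRQ+PD-1 against IgG2a (adjusted p = 0.0102) and -0.32 ± 0.0587 for brequinar averaged over antibodies (adjusted p = 0.00116). The interaction was -0.42 ± 0.117 and did not pass (adjusted p = 0.441). The fall passed with any 1 tumour left out, in the first 3 of these comparisons; without BRQ+PD-1 replicates 1 and 2 together it was lost against IgG2a (adjusted p = 0.0581).

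Of the stalk proteins, which draw translation factors to the ribosome, Mrpl12 fell, and its anchor Mrpl10 had a value near 0. Mrpl12 had a lowest, median and highest CPM of 50.7, 59.7 and 74.6 in BRQ+PD-1, 65.7, 68.4 and 77.8 in BRQ+IgG2a, 70.9, 75.5 and 99.97 in PD-1, and 68.1, 82.1 and 93.6 in IgG2a. All 6 BRQ+PD-1 tumours lay below the IgG2a mean although the groups overlapped, and the log2 fold change of Mrpl12 was -0.44 ± 0.104 (adjusted p = 0.0196) against IgG2a, -0.40 ± 0.104 (adjusted p = 0.0258) against PD-1 and -0.31 ± 0.0733 (adjusted p = 0.00817) for brequinar averaged. Mrpl11, at the neighbouring stalk base, fell in BRQ+PD-1 against IgG2a alone (-0.42 ± 0.115, adjusted p = 0.0399), with medians of 28.5 and 36.0 CPM in BRQ+PD-1 and IgG2a. Without the muscle-rich tumours the pairwise calls were lost: adjusted p was 0.147 for Mrpl11 and, for Mrpl12, 0.0629 against IgG2a and 0.0535 against PD-1, while the averaged call of Mrpl12 held (0.0307). Mrpl11 passed in 4 of 13 other fits. Mrpl10 had median CPM of 52.8 in BRQ+PD-1, 51.4 in BRQ+IgG2a, 50.6 in PD-1 and 52.6 in IgG2a, and an averaged log2 fold change of 0.00 ± 0.041 (adjusted p = 0.997).

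Besides Mrpl12, the large subunit proteins with bacterial counterparts that fell with brequinar averaged were Mrpl2, known from bacteria to lie by the catalytic centre, Mrpl22, which lines the exit tunnel, Mrpl20, which acts early in bacterial subunit assembly, Mrpl17, Mrpl19 and Mrpl35. Mrpl20 had a lowest, median and highest CPM of 17.8, 31.0 and 32.0 in BRQ+PD-1, 26.2, 31.4 and 33.5 in BRQ+IgG2a, 31.2, 35.6 and 41.7 in PD-1, and 31.8, 37.6 and 49.5 in IgG2a. The brequinar groups overlapped with the others between 31.2 and 33.5 CPM, and its averaged log2 fold change was -0.35 ± 0.0907 (adjusted p = 0.0151). The other 5 ranged from -0.19 ± 0.0561 for Mrpl17 (adjusted p = 0.0303) to -0.26 ± 0.0744 for Mrpl19 (adjusted p = 0.0263). Mrpl4, a tunnel protein, fell in BRQ+PD-1 against IgG2a (-0.29 ± 0.0804, adjusted p = 0.0413): its CPM were 28.7 to 43.0 in BRQ+PD-1 and 43.7 to 51.2 in IgG2a, with no overlap. Mrpl3, which lies near the catalytic centre in bacteria, had medians of 49.5, 52.6, 52.9 and 54.0 CPM in BRQ+PD-1, BRQ+IgG2a, PD-1 and IgG2a and an averaged value of -0.03 ± 0.0435 (adjusted p = 0.699).

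The other large subunit genes that fell in that comparison, Mrpl37, Mrpl38, Mrpl41, Mrpl49, Mrpl51 and Mrpl52, encode proteins found only in mitochondria. Mrpl51 had a lowest, median and highest CPM of 28.3, 34.8 and 42.4 in BRQ+PD-1, 25.9, 36.6 and 41.0 in BRQ+IgG2a, 36.4, 43.0 and 58.2 in PD-1, and 37.2, 41.3 and 59.6 in IgG2a. Its 3 highest tumours were muscle-rich; the averaged log2 fold change was -0.38 ± 0.0979 (adjusted p = 0.0135), and -0.26 without the muscle-rich tumours (adjusted p = 0.0505). Mrpl38 gave -0.30 ± 0.0729 (adjusted p = 0.00881), with median CPM of 54.7 in BRQ+PD-1, 52.4 in BRQ+IgG2a, 64.6 in PD-1 and 64.6 in IgG2a. Mrpl49 changed little, by -0.17 ± 0.0425 with brequinar averaged (adjusted p = 0.013). Its CPM were 28.7 to 33.9 in BRQ+PD-1, 32.1 to 35.8 in BRQ+IgG2a, 33.4 to 40.1 in PD-1 and 33.8 to 40.2 in IgG2a. In BRQ+IgG2a against IgG2a Mrpl49 was at -0.08 ± 0.06 (adjusted p = 0.612). In BRQ+PD-1 against PD-1 it was at -0.26 ± 0.0601 (adjusted p = 0.017). Mrpl52 was the only member with all BRQ+IgG2a tumours below all IgG2a tumours (46.5 to 54.0 against 55.1 to 72.3 CPM), where 0.518% of all genes showed this. Mrpl45, a tunnel exit protein that binds the inner membrane, had every BRQ+PD-1 tumour (48.0 to 54.5 CPM) below every BRQ+IgG2a tumour (54.6 to 62.0 CPM), where 0.106% of all genes did; it was not called (-0.19 ± 0.0568, adjusted p = 0.665). Mrpl44, an RNase III relative, and Mrpl58, a peptidyl-tRNA hydrolase, had averaged values of -0.07 ± 0.0866 and -0.08 ± 0.0625 and did not pass.

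**Figure D4:**
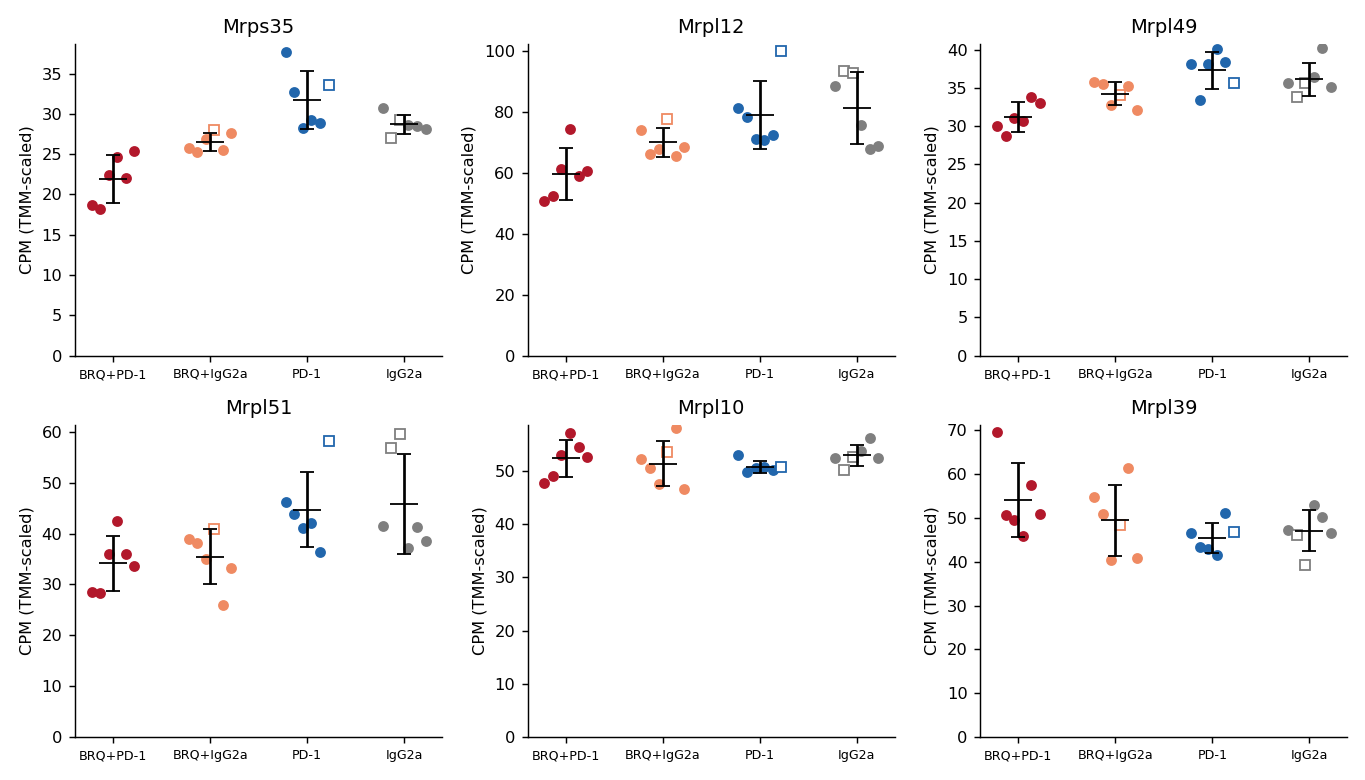
CPM scaled by TMM factors (vertical axes, from 0) of Mrps35, Mrpl12, Mrpl49, Mrpl51, Mrpl10 and Mrpl39 in each tumour, by group; open squares are the 4 muscle-rich tumours and the bars give mean ± SD. Mrps35 averages 21.9 CPM in BRQ+PD-1 against 31.7 in PD-1 and 28.7 in IgG2a, the Mrpl10 group medians lie between 50.6 and 52.8 CPM, and Mrpl39 averages highest in BRQ+PD-1.

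In the small subunit, Mrps7 and Mrps11, RNA-binding proteins of the head and the platform, fell by 0.18 ± 0.0527 (adjusted p = 0.0236) and 0.30 ± 0.081 (adjusted p = 0.0185) on the log2 scale with brequinar averaged. Mrps11 had a lowest, median and highest CPM of 9.67, 11.8 and 16.04 in BRQ+PD-1, 12.5, 13.6 and 14.7 in BRQ+IgG2a, 14.3, 16.3 and 20.6 in PD-1, and 13.7, 15.4 and 17.6 in IgG2a, and the groups overlapped. Mrps24 fell in BRQ+PD-1 against IgG2a by 0.49 ± 0.123 (adjusted p = 0.028), its CPM being 15.3 to 29.3 and 25.4 to 37.8 in those groups. Mrps25 and Mrps33, both found only in mitochondria, gave averaged values of -0.39 ± 0.112 (adjusted p = 0.0263) and -0.27 ± 0.0771 (adjusted p = 0.0232). Opposite-strand exons of Nr2c2 overlap 69.8% of the exon length of Mrps25, and with the strand setting of the counting not given its reads cannot be told from those of that gene. Mrps12, of the decoding centre, Mrps16, Mrps2, Mrps6, Mrps22 and Mrps27 had averaged values of -0.27, -0.20, -0.08, -0.15, -0.16 and -0.10, and none passed. Mrps34, whose exons overlap Mapk8ip3 over 77.8% of their length, was at 0.00 ± 0.0856.

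Among the genes with misleading or paralogous names, none passed. The paralogs Mrps18a, Mrps18b and Mrps18c, which share an ancestor in bacterial S18, gave averaged values of -0.13 ± 0.0641, -0.07 ± 0.0841 and 0.11 ± 0.108. Mrps30 was at -0.02 ± 0.047 and Mrps36 at -0.20 ± 0.109. The member with the most positive averaged value was Mrpl39, a mitochondria-specific large subunit protein related to threonyl-tRNA synthetase, at 0.16 ± 0.0749 (adjusted p = 0.159). Its lowest, median and highest CPM were 45.9, 50.9 and 69.7 in BRQ+PD-1, 40.4, 49.7 and 61.4 in BRQ+IgG2a, 41.5, 45.0 and 51.0 in PD-1, and 39.2, 46.9 and 53.0 in IgG2a, and the groups overlapped.

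The called members were not spread evenly over the genome. All 6 tested members on chromosome 6 fell in the averaged comparison (Mrps35, Mrps33, Mrps25, Mrpl51, Mrpl35 and Mrpl19, median log2 fold change -0.30), and chromosome 6 was singled out after this was seen. On that chromosome 15.7% of the 829 other genes tested fell as well, against 0.8 to 7.83% on the other autosomes and the X chromosome, so other genes of chromosome 6 fell more often there too. The 412 other chromosome 6 genes above 4 on the log2 CPM scale had, per tumour, a median deviation from their mean over tumours of -0.09 to 0.01 in BRQ+PD-1, -0.09 to -0.02 in BRQ+IgG2a, -0.02 to 0.21 in PD-1 and -0.10 to 0.10 in IgG2a. The 5 highest tumours were PD-1 replicates 2, 1 and 6, IgG2a replicate 5 and PD-1 replicate 4. With each chromosome's level per tumour set as an offset, 10 members fell with brequinar averaged, 9 of them among the 19; Mrps35 was at -0.21 ± 0.0583 (adjusted p = 0.0203) and the other 5 members of chromosome 6 did not pass. Off chromosome 6, 13 of 71 members (18.3%) fell, with a median of -0.16. What sets the level of chromosome 6 was not tested.

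**Figure D5:**
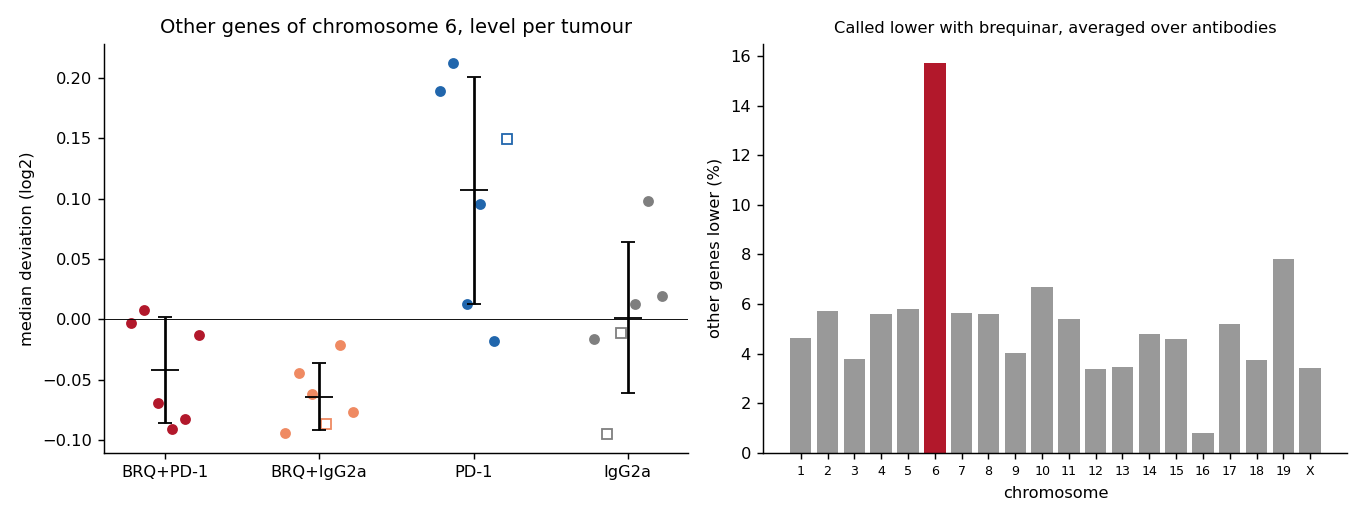
Left, median log2 deviation from the mean over tumours of 412 chromosome 6 genes that are not members, in each tumour by group, with open squares for muscle-rich tumours and mean ± SD. Right, percentage of the other genes tested on each chromosome that fell with brequinar averaged over antibodies; chromosome 6 stands at 15.7%, and the next highest, chromosome 19, at 7.83%.

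Most members varied together from tumour to tumour within groups. With group means removed, 57 of 77 correlated above 0.5 with the mean of the other members over the 24 tumours, the median r being 0.67, against 0.03 for the 15950 other genes, which share the same libraries and scaling. Mrps15, Mrpl17, Mrpl12 and Mrps7 followed the rest most closely (r of 0.93, 0.92, 0.91 and 0.89). Mrpl3, Mrpl39, Mrps22 and Mrpl49 followed least (r of -0.35, -0.27, -0.17 and -0.02). Without the muscle-rich tumours Mrpl49 stood at 0.28 and the other 3 at -0.34, -0.19 and -0.25. Without the muscle-rich tumours the median r over pairs of members was 0.33, against 0.42 with them. The genes outside the family with the most similar pattern over the 24 tumours were Cox4i1 (r = 0.95) and Cox5b (r = 0.95), of cytochrome oxidase, Sod1 (r = 0.95), the cytosolic superoxide dismutase, and Ndufs5 (r = 0.95), of complex I.

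Per kilobase of exon, members differed 15.96-fold in level. Mrpl52 (50.4 CPM per kilobase), Mrpl12 (47.4) and Mrps21 (46.7) were highest, and Mrps35 (3.16), Mrps25 (3.31) and Mrpl48 (3.36) lowest. The median was 10.2 CPM per kilobase for members, against 4.72 for all genes tested. Exon length here joins every annotated exon of a gene (8631 bases for Mrps35, 1109 for Mrpl52). Genes with much annotated exon sequence therefore come out lower, and the lengths transcribed in these tumours were not measured. Before this division Mrps35 had 27.1 to 30.7 CPM in IgG2a tumours, and Mrpl46, which ranks above it per kilobase, 11.1 to 14.6.

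Of the other genes of mitochondrial translation, small numbers passed, to be read against the 5.57% of all genes that fell and the 6.91% that rose. Of 5 further mitoribosomal proteins 2 fell with brequinar averaged, Ptcd3 (-0.27 ± 0.0731) and Chchd1 (-0.29 ± 0.0885). Of 28 assembly factors 2 fell (7.14%), the GTPase Noa1 (-0.21 ± 0.0583) and Rcc1l (-0.22 ± 0.0677), and of 16 translation factors 1 fell (6.25%), the elongation factor Tufm (-0.22 ± 0.0662). Among 20 mitochondrial aminoacyl-tRNA synthetases Ears2 (-0.33 ± 0.105) and Mars2 (-0.34 ± 0.0923) fell (10.0%) and Wars2 (0.20 ± 0.0639) rose. Of 15 genes of mitochondrial DNA upkeep and transcription the helicase Twnk (-0.18 ± 0.0588) and the single-strand binding protein Ssbp1 (-0.32 ± 0.0897) fell (13.3%). Ssbp1, Ptcd3 and 6 of the members share chromosome 6. Of 12 mitochondrially encoded messages tested, mt-Atp6 rose (0.38 ± 0.124) and none fell. Their averaged median was 0.14, with 2 of 12 negative, so most lay opposite in sign to the members. Medians were 0.34 in BRQ+PD-1 against PD-1 (2 negative, 0 called) and 0.00 in BRQ+PD-1 against IgG2a (6 negative). BRQ+IgG2a against IgG2a gave 0.03 (5 negative).

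With brequinar averaged, 22 of 78 cytosolic ribosomal protein genes tested fell, or 28.2%, against 5.57% of all genes (median -0.21 on the log2 scale). Of 76 nuclear genes of oxidative phosphorylation 6 fell, or 7.89%, a share near that of all genes, while 73 had negative values (median -0.16). Neither family had a gene that rose. Among 14 regulators of mitochondrial genes tested, Myc, which drives ribosome genes, fell by 0.56 ± 0.0885 (adjusted p = 0.000386), the coactivator Pprc1 by 0.33 ± 0.0813 and the nuclear receptor Esrra by 0.29 ± 0.07, whereas Gabpa, an ETS family factor, rose by 0.35 ± 0.0957 (adjusted p = 0.0175). Nrf1 (-0.12 ± 0.0498) and Yy1 (-0.02 ± 0.0518) did not pass. Cell cycle genes were mostly negative too in the averaged comparison, with few calls. With brequinar averaged, 17 of 20 S phase genes had negative values (median -0.14) and 1 fell (Mcm2), and 17 of 20 mitosis genes had negative values (median -0.11) and 0 were called. In BRQ+PD-1 against PD-1, 19 of 20 S phase genes (median -0.24, 1 called) and 20 of 20 mitosis genes (median -0.27, 0 called) had negative values, against a median of -0.19 for the members. In BRQ+PD-1 against IgG2a these medians were -0.12 for S phase and -0.05 for mitosis, against -0.24 for the members. Medians in BRQ+IgG2a against IgG2a were -0.04 for S phase (11 of 20 negative) and 0.02 for mitosis (7 of 20 negative). The members' median there was -0.12. PD-1 against IgG2a gave positive medians, 0.11 for S phase (1 of 20 negative) and 0.17 for mitosis (0 of 20 negative). The part of cell division in the members' values was not tested.

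Promoter sequence was read for the members, since many moved together and NRF1 and ETS factors such as GABPA are known to drive nuclear genes of mitochondria. RefSeq promoters (GRCm38.p6, 250 bases before to 50 after the start) were held for 69 of the 78 members, 75 promoters in all. The ETS core CCGGAAG, on either strand, was found in 34.7% of member promoters, against 8.86% of all 32851 promoters and 18.3% of those of genes averaging at least 200 counts. The NRF1 core GCATGCGC was in 10.7%, against 2.71 and 5.46%, and the YY1 core AAGATGGCG in 10.7%, against 1.4 and 3.24%. The E-box CACGTG was in 9.33%, against 7.15 and 10.2%, and the CRE TGACGTCA in 2.67%, against 1.79 and 3.0%. The 7 member promoters with an E-box belong to 5 genes, since overlapping promoters of Mrpl2 were counted separately. Of the 16 members with a promoter that fell in the averaged comparison, 5 held an NRF1 or ETS core, against 30 of all 69. The YY1 core was in 4 of these 16 and 8 of the 69, the E-box in 3 and 5, and the CRE in 1 and 2. No difference in these shares was tested.

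The 250 bases before the start are shown for members that fell, with the ETS and NRF1 cores in capitals. Mrpl17 (chr7:105811088-105811337, minus strand) and Mrpl22 (chr11:58171414-58171663, plus strand) hold both cores, Mrpl52 (chr14:54426659-54426908, plus strand) holds the ETS core on the reverse strand in this stretch, and Mrpl12 (chr11:120484387-120484636, plus strand) holds none of the 5 motifs.
Mrpl17: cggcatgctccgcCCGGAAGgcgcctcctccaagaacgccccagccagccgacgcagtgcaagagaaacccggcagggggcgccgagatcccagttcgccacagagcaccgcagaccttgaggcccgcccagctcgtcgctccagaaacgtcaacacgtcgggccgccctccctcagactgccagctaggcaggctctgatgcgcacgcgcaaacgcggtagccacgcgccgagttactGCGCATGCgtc
Mrpl22: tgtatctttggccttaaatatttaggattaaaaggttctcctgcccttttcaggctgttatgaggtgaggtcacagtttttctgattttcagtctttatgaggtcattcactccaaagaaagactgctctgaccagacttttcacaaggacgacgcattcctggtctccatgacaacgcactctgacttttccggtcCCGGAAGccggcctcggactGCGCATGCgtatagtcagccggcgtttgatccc
Mrpl52: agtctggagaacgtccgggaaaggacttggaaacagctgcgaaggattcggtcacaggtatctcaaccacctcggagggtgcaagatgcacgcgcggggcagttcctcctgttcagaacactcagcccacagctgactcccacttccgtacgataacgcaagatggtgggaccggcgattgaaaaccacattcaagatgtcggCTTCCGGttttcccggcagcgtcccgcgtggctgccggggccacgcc
Mrpl12: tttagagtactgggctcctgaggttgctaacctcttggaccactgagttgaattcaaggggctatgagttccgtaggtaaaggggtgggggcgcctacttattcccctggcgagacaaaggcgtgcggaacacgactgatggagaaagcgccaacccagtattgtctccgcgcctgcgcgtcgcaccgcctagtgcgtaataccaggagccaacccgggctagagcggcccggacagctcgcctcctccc
The cores lie 33 (NRF1) and 53 (ETS) bases before the start in Mrpl22, and 11 and 237 bases before it in Mrpl17.

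Head-to-head neighbours were also compared. In the M21 annotation 23 members have a protein-coding gene transcribed away from them with starts within 1000 bases. With brequinar averaged 6 of these members and 1 of the 23 partners fell, where 5.57% of all genes did, and in no pair did both fall; the difference between members and partners was not tested. Median log2 fold changes were -0.17 for these members and -0.08 for their partners. Mrpl49 faces Fau, a ribosomal fusion protein gene (59 bases apart), which was at -0.23 ± 0.11 (adjusted p = 0.182), and Mrpl51 faces Ncapd2, of condensin (100 bases apart), which was at -0.22 ± 0.145 (adjusted p = 0.322). Mrps7 and Gga3 (-0.16 ± 0.0608, adjusted p = 0.0872) have overlapping starts. The partner that fell was Ndufs6, a complex I gene (-0.42 ± 0.14, adjusted p = 0.0483), beside Mrpl36 (-0.16 ± 0.0564, adjusted p = 0.0616).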

How the data were processed

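RNA of 24 D4M tumours, 6 per group, was sequenced with 1 library per tumour. RNeasy kits gave the RNA and Novogene made the libraries, per the labels' protocols. The tools named, per the submitters' processing notes, are HISAT2 2.2.1, StringTie 2.2.1, Trim Galore 0.6.7, MultiQC 1.11 and FastQC 0.11.8, with build GRCm39; which program counted reads, with what annotation and strand setting, is not stated. The deposited table holds whole-number counts per gene, not normalized; the deposited FPKM and TPM tables, as used here, hold genes of low level and no member, and were not used. Chromosomes, exon lengths and neighbours came from GENCODE M21, whose build, GRCm38, precedes that of the counts, and promoters from RefSeq.

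Counts were tested with edgeR 4.0.16 in R 4.3.3: TMM factors, filterByExpr by group, and 1 robust quasi-likelihood fit of the 24 libraries on group (20 residual degrees of freedom). Benjamini-Hochberg adjustment ran over 16029 genes, and a gene was called, or said to fall or rise, at an adjusted p under 0.05. Values are CPM on TMM-scaled totals and log2 fold change ± SE, with SE taken as the absolute log2 fold change over root F. The test was tried on simulated counts with changes larger than the members' median change, placed in the BRQ+IgG2a libraries only. No result here rests on that trial. Variation between replicates, in 60 pairs, was 9.17 to 219.1 times sampling noise, and every library was kept. The labels call the samples biological replicates and say no more of their origin. Group means in log2 CPM use a prior count of 2.

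Members and gene lists were chosen with earlier results of these data known, as were the 4 libraries left out for muscle; 3 listed symbols were not matched. Named genes were every called member, the 4 smallest p-values per comparison, the extremes of level and of correlation, a set of paralogs and known proteins, the 3 closest-tested head-to-head pairs and up to 4 called genes per list; Mrpl21, Mrpl45 and the chromosome 6 set were added after their values were seen. Alternatives were DESeq2 1.42.0, voom with sample quality weights (limma 3.58.1), RLE size factors, no filter on expression, a replicate block, a muscle covariate, only the groups compared, leaving out the muscle-rich libraries, and leaving out each library. Added after seeing the data were library totals alone, offsets for GC content with length and for chromosome level, and leaving out BRQ+PD-1 replicates 1 and 2.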

Additional observations from a re-analysis of the deposited data

Results flagged for a closer look

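Within groups of 6, the highest or lowest tumour was set against its nearest neighbour and the group's range for 31 measures, 124 group values in all, of which 8 stood apart; chance alone gives about 1 in 20. PD-1 replicate 6, a muscle-rich tumour, had a mean member level of 5.079 log2 CPM (next 4.898), gave 0.2933% of its counts to members (next 0.2595%) and had 99.97 CPM of Mrpl12 (next 81.29). BRQ+IgG2a replicate 4, also muscle-rich, had 45.88 CPM of Mrpl37 (next 40.34). BRQ+IgG2a replicate 5 was low for Mrps24 (22.94 CPM, next 26.75) and Mrpl41 (12.54 CPM, next 16.23). BRQ+PD-1 replicate 1 was high for Mrpl50 (34.65 CPM, next 28.37), and BRQ+PD-1 replicate 2 was low for Mrpl20 (17.83 CPM, next 27.2).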

How the results depend on the processing

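The count of members that fell moved with the fit, while no member rose in any fit. None of 50 named member results reversed direction, these being the called members and the 4 smallest p-values per comparison. Mrpl10, outside those 50, had an averaged value of -0.0003, and 0.0112 with the chromosome offset. In the order BRQ+PD-1 against IgG2a, BRQ+PD-1 against PD-1 and brequinar averaged, the counts were 8, 7 and 19. Without an expression filter the pairwise counts were 3 and 2. With a muscle covariate they were 3 and 4, and with only the 2 groups compared 1 and 1. Without the 4 muscle-rich libraries they were 1, 2 and 3. DESeq2 gave 26 and 13. Limma voom gave 14 in BRQ+PD-1 against PD-1, 2 in BRQ+IgG2a against IgG2a, 1 in BRQ+PD-1 against BRQ+IgG2a and 1 in the interaction. Library totals alone gave 2 in BRQ+PD-1 against IgG2a. The GC and length offset gave 13 and 12. The chromosome offset gave 3, 4 and 10. Without BRQ+PD-1 replicates 1 and 2 the counts were 0, 2 and 14, with 2 in BRQ+IgG2a against IgG2a. The replicate block gave 2, 2 and 10, and with the GC and length offset 3 and 3. Replicate numbers are not a stated pairing: same-numbered tumours correlated at a mean r of -0.06 and 15 of 36 such pairs exceeded 0.1, and 1 of 24 tumours matched its own number best.

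Leaving out each tumour in turn gave 1 to 15 calls in BRQ+PD-1 against IgG2a (1 without IgG2a replicate 1, 15 without BRQ+PD-1 replicate 4), 2 to 10 against PD-1 (2 without PD-1 replicate 1), 12 to 27 averaged (12 without PD-1 replicate 6) and 0 to 1 in BRQ+IgG2a against IgG2a. The cause of these moves was not tested. The averaged median ranged from -0.18 to -0.10 over all fits, and the PD-1 median, -0.04, reached 0.01 without the muscle-rich libraries. Leaving out BRQ+PD-1 replicates 1 and 2 moved 2 other medians more. In BRQ+PD-1 against BRQ+IgG2a the median went from -0.12 (68 of 77 negative) to -0.06 (47 negative). The interaction median went from -0.09 (58 negative) to 0.03 (33 negative). Over the alternatives of 50 named member results, 1458 values kept their side of the threshold, 365 lost the call and 4 gained it. The 50 include results not called in the main fit, which could not lose a call and were mostly counted as kept. Each tested member had at least 197 counts in every tumour, and replicates differed by at least 9.17 times the sampling noise.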

Other observations

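Chromosome 16 stood opposite to chromosome 6: 17.4% of its other genes tested rose with brequinar averaged and 0.8% fell, with a median log2 fold change of 0.15 over 263 genes above 4 on the log2 CPM scale. Its level per tumour ran from -0.16 to 0.35, highest in BRQ+PD-1 replicate 1. That tumour was also the highest on other chromosomes, among them 1, 3, 12, 13 and 18, and the lowest on 7 and 17. None of the 3 members on chromosome 16 was called.

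Dhodh, which encodes the target of brequinar, had 203 to 521 counts per tumour.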
